A study of Mus musculus with 12 samples.

Results

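The D-type cyclins, their kinases and the inhibitors of those kinases were examined as 10 listed genes: Ccnd1, Ccnd2, Ccnd3, Cdk4, Cdk6, Cdkn1a, Cdkn1b, Cdkn1c, Cdkn2b and Cdkn2c. The genes were matched by symbol to the probes of the array. Where a gene had several probes, the brightest, by its mean normalized log2 level on the 12 arrays, stands for it. Of the 10, 9 had a named probe (11 probes in all), among 17742 named genes and 26423 probes on the array. No probe was annotated to Cdk4. RNA came from whole hearts of mice at postnatal day 8, on a C57bl/6 X 129 hybrid background. The stage label and the protocol give that day, while the source label calls the tissue embryonic heart. The 4 samples were 2 of the Salvador mutant, labelled Salv CKO, and 2 of wild-type controls, each hybridised to 3 technical arrays. The study asked which genes depend on the Hippo pathway in the growing heart. Not given in the sources used here are the Cre driver of the mutant, the deleted part of the gene and whether a sample was 1 heart or a pool.

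D-type cyclins are the cyclins that growth signals switch on in the G1 phase. They bind the kinases Cdk4 and Cdk6, which begin the phosphorylation of the retinoblastoma protein and so release the E2F factors that drive entry into S phase. INK4 inhibitors such as Cdkn2b (p15) and Cdkn2c (p18) bind these kinases directly, while the CIP/KIP inhibitors Cdkn1a (p21), Cdkn1b (p27) and Cdkn1c (p57) bind cyclin and kinase complexes. In the mouse heart the first days after birth are the time at which most heart muscle cells leave the cell cycle, and Hippo signalling is known to restrain their proliferation.

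Levels are log2(intensity + 1) after quantile normalization, averaged over the 3 arrays of a sample. A level is compared only between samples of one probe, since brightness also depends on the probe. The deposited intensities were linear, and array medians ran from 58 to 88. Sav1, the Salvador gene, was at 8.06 and 8.52 in the Salv CKO samples against 8.75 and 8.08 in the controls, so it did not separate the groups, and the samples are called here by their labels. A probe outside the deleted part would check nothing. Summed intensities of a gene list are sums of sample levels taken back from the log2 scale. They are thus normalized values and not sums of the deposited intensities. Heart muscle genes were bright, with a summed intensity of 147000 to 158000 for the 4 measured of 6 listed genes. In whole tissue, fewer cells of a type and less RNA per cell cannot be told apart.

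No member passed the comparison of Salv CKO with control. With limma across all probes, 0 of 9 members had an adjusted p under 0.05 (smallest adjusted p = 0.998), where 0 of 26423 probes, or 0%, passed. At an unadjusted p under 0.05 there were 0 of 9 members, against 3.97% of all probes. With 2 samples against 2, an exact permutation test of a single gene could not go below 0.333. Differences were positive for 5 members, Cdkn2c at background among them, and negative for 4. Their median of 0.0047 was the value of Cdkn2c itself. It was 0.13 without Cdkn2c, against -0.021 over all named genes. In 4 of the 9 members, Ccnd2, Cdk6, Cdkn1a and Cdkn2b, both Salv CKO samples lay above both controls. That was the case for 14.2% of named genes. No member lay lower in both Salv CKO samples, against 16.5% of named genes. Both counts depended on the scaling. With each array centred on its median, 2 members were higher (10.2% of named genes) and 2 lower (15.9%). Without normalization, 2 were higher (20.5% of named genes) and 0 lower (4.06%). Cdk6 and Cdkn2b were the 2 members that stayed higher in both Salv CKO samples under all 3 scalings.

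**Figure D1:**
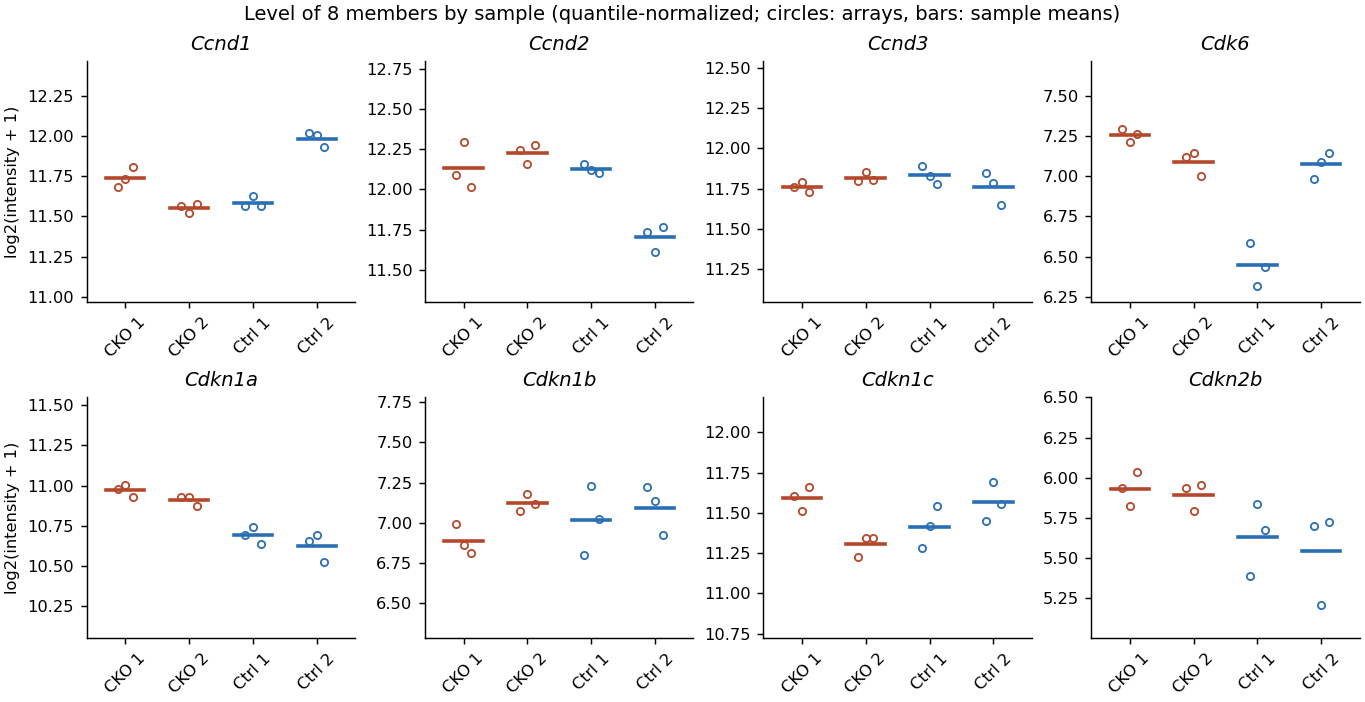
Level of 8 measured members in each sample, as log2(intensity + 1) after quantile normalization, on y axes of equal span. Open circles are the 3 technical arrays and bars the sample means, with Salv CKO in red and control in blue. Control 2 stands low for Ccnd2 and high for Ccnd1, and Control 1 stands low for Cdk6. Cdkn2c is left out because its intensities were at background.

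Among the D-type cyclins, Ccnd1 was at 11.74 and 11.55 in the Salv CKO samples and at 11.58 and 11.98 in the controls. Control 2 was highest and Salv CKO 2 lowest, and the groups overlapped. The group difference was -0.14 ± 0.25 (SE, limma, n = 2 per group, adjusted p = 0.998), smaller than the 0.40 between the 2 controls. The 3 arrays of Control 2 lay above all arrays of the other samples, while the arrays of Salv CKO 2 and Control 1 overlapped. With median centring both Salv CKO samples lay below both controls and the difference was -0.36. Without Control 2 it was 0.062, so its sign rested on that sample.

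Ccnd2, a D-type cyclin of G1, had the widest range of the cyclins and was measured by 2 probes. The brighter probe was at 12.13 and 12.23 in the Salv CKO samples and at 12.13 and 11.70 in the controls. Control 2 was low, and Control 1 was only 0.0075 below Salv CKO 1, with overlapping arrays. The deposited intensities ran from 2725 to 3331 on the arrays of Control 2, from 3259 to 4328 in Salv CKO 1, from 4561 to 5269 in Control 1 and from 4907 to 6142 in Salv CKO 2. The group difference was 0.26 ± 0.25 (SE, limma, n = 2 per group, adjusted p = 0.998), with a 95% interval from -0.39 to 0.92. Without Control 2 it was 0.053, and with median centring it was 0.047 and the groups overlapped. The second probe, at 11.72 and 11.44 against 11.44 and 11.12, was also lowest in Control 2 and differed by 0.30.

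Control 2 also differed from the other samples in markers of other cell types. All 4 listed lung epithelium genes were highest there, with a summed intensity of 2458 against 46.5 in Control 1, 331 in Salv CKO 1 and 50.8 in Salv CKO 2. Most of that sum was Scgb1a1. Deposited intensities, which are not on the scale of the sums, averaged 2125 for Scgb1a1 in Control 2 and 455 in Salv CKO 1. The other 3 genes averaged 19.3 to 50.7 in Control 2. In Salv CKO 1 the level of Scgb1a1 had an SD of 2.66 between arrays. Erythroid genes (5 of 6 measured) had their lowest sum in Control 2, 5293 against 9103 to 13680 in the other 3 samples. Most of that sum was Alas2. Its deposited intensity, again not on the scale of the sums, averaged 4720 in Control 2. Klf1 was lowest in Salv CKO 1 and Ermap in Control 1. Of these markers, Sftpb, Sftpa1, Epb42 and Ermap had mean intensities under 30 over all arrays. The part of either marker list in the levels of Ccnd1 and Ccnd2 was not tested.

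Ccnd3 was nearly level by its brighter probe and not by the other. The brighter probe stood at 11.76 and 11.82 in the Salv CKO samples and at 11.83 and 11.76 in the controls. All 4 samples lay within 0.073 of each other, against an SD of 0.062 between technical arrays. The difference of -0.0078 had a 95% interval from -0.55 to 0.54, that is, from 0.68 to 1.45 times the control. A change within that interval cannot be told from none, and the interval is not a limit of detection. The second probe was at 11.05 and 10.85 against 10.56 and 10.91, lowest in Control 1, and differed by 0.21 ± 0.24 (SE, limma, adjusted p = 0.998).

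Promoter sequences from RefSeq (GRCm38.p6) were matched by symbol for 7 of the 10 genes, and Ccnd1, Ccnd2 and Cdkn1c were not analysed here. The 250 bases before each start were searched on both strands for 4 motifs. These were GGAATG, the core of the TEAD site through which Yap1 acts, TTTCGCGC or TTTGGCGC for E2F, CACGTG, the E-box of Myc, and the p53 half-site consensus. Of 32851 promoters of this length, 12.6% held the TEAD core, 0.654% the E2F motif, 6.02% the E-box and 7.13% a p53 half-site. A match describes letters only and is no evidence of binding. The window before the downstream start of Ccnd3 (chr17:47593217-47593466, plus strand) held the TEAD core on the minus strand, beginning 17 bases before the start. It is shown because it was the one member window with this motif, which appears in capitals. The upstream window of Ccnd3 held none of the 4 motifs.
Ccnd3 downstream promoter: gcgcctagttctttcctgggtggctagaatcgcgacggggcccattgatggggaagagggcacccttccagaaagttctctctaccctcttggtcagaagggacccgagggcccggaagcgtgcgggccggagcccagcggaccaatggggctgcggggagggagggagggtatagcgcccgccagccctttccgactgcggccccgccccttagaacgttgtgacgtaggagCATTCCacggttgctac

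Of the cyclin D kinases, Cdk6 alone was measured. It stood at 7.26 and 7.09 in the Salv CKO samples and at 6.44 and 7.07 in the controls. Control 1 was low, with all its arrays below those of the other samples, while Control 2 was only 0.016 below Salv CKO 2 with overlapping arrays. The deposited intensities were 67 to 101 in Control 1, 114 to 141 in Control 2, 135 to 154 in Salv CKO 1 and 144 to 161 in Salv CKO 2. The group difference was 0.41 ± 0.30 (SE, limma, n = 2 per group, adjusted p = 0.998), the largest among the members, with a 95% interval from -0.37 to 1.19. Without Control 1 it was 0.099, and without Control 2 it was 0.73. The range of Cdk6 over the 4 samples, 0.81, exceeded that of 84.9% of the 9017 named genes with a mean level of at least 7, a threshold that Cdk6 itself just missed. Control 1 also had the highest summed intensity of adipocyte genes (23750 against 13740 to 18620) and the lowest of cycling cell markers (3482 against 4160 to 5738). Their part in the level of Cdk6 was not tested.

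The promoter window of Cdk6 (chr5:3343643-3343892, plus strand) is shown because Cdk6 had the largest difference of the members. Its capitals mark the E-box, 220 bases before the start. The window of Cdk4, the kinase without a probe, held the same E-box at 4 positions.
Cdk6 promoter: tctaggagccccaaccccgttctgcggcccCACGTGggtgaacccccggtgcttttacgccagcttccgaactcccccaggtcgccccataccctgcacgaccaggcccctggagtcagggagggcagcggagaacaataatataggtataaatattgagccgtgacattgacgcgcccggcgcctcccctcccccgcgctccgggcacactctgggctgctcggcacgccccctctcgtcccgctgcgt

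Among the CIP/KIP inhibitors, Cdkn1a was higher in both Salv CKO samples with quantile normalization and not with the other 2 scalings. It stood at 10.97 and 10.91 in the Salv CKO samples and at 10.69 and 10.63 in the controls. The 2 samples of each group were 0.062 and 0.064 apart, and all 6 Salv CKO arrays lay above all 6 control arrays. The arrays of a sample are technical and do not count as replicates. The group difference was 0.28 ± 0.21 (SE, limma, n = 2 per group, adjusted p = 0.998), or 1.22-fold with a 95% interval from 0.84 to 1.78. Leaving out 1 sample gave 0.25 to 0.32. The deposited intensities averaged 1660 and 2274 in the Salv CKO samples against 1775 and 1435 in the controls, so that Salv CKO 1 was below Control 1. With median centring the difference was 0.093 and the groups overlapped. With all 12 arrays and the sample as a random block, Cdkn1a had an adjusted p of 0.365 in limma, the lowest of any member in any setting.

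Cdkn1a is a classic target of p53. The window before its upstream start (chr17:29090729-29090978, plus strand) held 2 matches to the p53 half-site, which are in capitals, at 73 and 51 bases before the start. It is printed for that reason, and the window of the downstream start, 2790 bases away, held none of the 4 motifs. Of the p53 genes, 11 measured of 12 listed, 4 had a positive difference and 0 passed, with a median of -0.092. Mdm2, which degrades p53, differed by -0.29 ± 0.23 (SE) and Zmat3 by -0.35 ± 0.29. Sesn2 differed by 0.60 at intensities of 3 to 34.
Cdkn1a upstream promoter: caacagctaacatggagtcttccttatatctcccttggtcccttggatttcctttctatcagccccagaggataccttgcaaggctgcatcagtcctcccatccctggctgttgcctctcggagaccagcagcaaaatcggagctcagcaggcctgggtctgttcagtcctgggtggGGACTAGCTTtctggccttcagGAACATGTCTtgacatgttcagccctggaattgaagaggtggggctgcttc

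Cdkn1b stood at 6.89 and 7.12 in the Salv CKO samples and at 7.02 and 7.09 in the controls. Salv CKO 1 was lowest and Salv CKO 2 highest, so the mutants enclosed the controls. The difference was -0.051 ± 0.22 (SE, limma, adjusted p = 1.00), and without normalization it was 0.11. No neighbours in the order of samples were separated by their arrays. Cdkn1c, an imprinted gene expressed from the maternal copy, stood at 11.59 and 11.30 against 11.41 and 11.57. Here the mutants again enclosed the controls, with Salv CKO 2 lowest. The difference was -0.041 ± 0.23 (SE, limma, adjusted p = 1.00), against 0.29 between the 2 Salv CKO samples. With median centring both Salv CKO samples lay below both controls, with a difference of -0.25.

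Of the INK4 inhibitors, Cdkn2b was dim but parted the groups in the deposited values too. Its intensities were 60 to 63 in Salv CKO 1, 54 to 76 in Salv CKO 2, 43 to 48 in Control 1 and 25 to 52 in Control 2. Every Salv CKO array was thus above every control array before normalization, though technical arrays are not replicates. The array medians then ran from 64 to 88 in Salv CKO and from 58 to 73 in control. Without normalization, 20.5% of named genes lay higher in both Salv CKO samples. After normalization the levels of Cdkn2b were 5.93 and 5.90 against 5.63 and 5.54, and single arrays overlapped between the groups. The difference was 0.32 ± 0.21 (SE, limma, n = 2 per group, adjusted p = 0.998), with a 95% interval from -0.22 to 0.87. It was 0.25 with a pseudocount of 16, 0.17 with one of 50 and 0.56 without normalization, and 0.28 to 0.37 with 1 sample left out. The pooled SD between single technical arrays was 0.20. Cdkn2c had intensities from -4 to 2 on the 12 arrays. This is background, and its difference of 0.0047 has no reading as a level.

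The Cdkn2b promoter window (chr4:89311033-89311282, minus strand) is printed as that of the other member that stayed higher under all 3 scalings. It held none of the 4 motifs and has no capitals.
Cdkn2b promoter: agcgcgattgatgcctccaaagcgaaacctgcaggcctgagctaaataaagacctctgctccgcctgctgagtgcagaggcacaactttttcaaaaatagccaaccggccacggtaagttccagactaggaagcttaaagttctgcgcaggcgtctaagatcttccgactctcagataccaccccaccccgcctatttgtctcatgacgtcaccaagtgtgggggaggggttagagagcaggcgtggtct

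**Figure D2:**
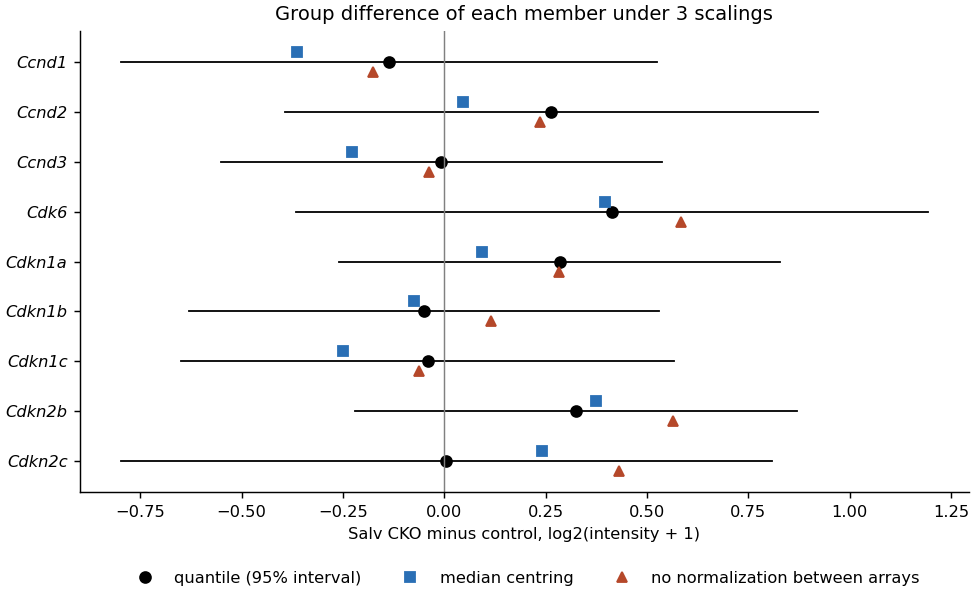
Difference between Salv CKO and control for each measured member on the log2(intensity + 1) scale. Black points are the quantile-normalized values with their 95% limma intervals, squares are values with median centring and triangles those without normalization. All 9 intervals include 0, and the 3 scalings give different signs for Cdkn1b.

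The genes on either side of cyclin D in the pathway came from lists chosen by function. Of 12 measured Rb and E2F genes (13 listed), 9 had a positive difference and 0 passed, with a median of 0.095. Rbl2, counted among the 12, had intensities of -2 to 4, which is background. Rbl1, the p107 pocket protein, differed by 0.29 ± 0.21 (SE), E2f4 by 0.25 ± 0.28 and E2f5 by -0.22 ± 0.29, the last with an SD of 1.51 between the arrays of Salv CKO 1. Without Control 2 the count fell to 4 of 12 positive, with a median of -0.14, and without Salv CKO 2 to 5 of 12, with a median of -0.027. Of the 6 cyclin E, cyclin A and Cdk2 genes, 3 were positive and 0 passed (median -0.0085), with 1 positive under median centring (median -0.063) and 5 without normalization (median 0.13). Cdc25a, the phosphatase that activates Cdk2, differed by -0.18 ± 0.30, Ccna1 by -0.14 ± 0.24 and Cdk2 itself by 0.12 ± 0.21. Of the CDK activating kinase, 2 of 3 genes were positive and 0 passed, with Cdk7 at 0.13, Ccnh at 0.067 and Mnat1 at -0.015. Dimmer probes differed by 0.15 and 0.42 for Cdk7 and by 0.16 and -0.38 for Ccnh. A dimmer Mnat1 probe differed by -0.63 at intensities of 0 to 13. With median centring the brightest probes of all 3 genes were negative. Of the other inhibitors, Cdkn3 differed by 0.44 ± 0.29 and Cdkn2a by -0.17 ± 0.30, the last at intensities of 40 to 88. A second Cdkn2a probe, at intensities of 1 to 10, differed by -0.68.

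Genes listed for the turnover of D-type cyclins and CIP/KIP inhibitors showed 4 of 11 positive differences (12 listed), with 0 passing and a median of -0.039. Fbxw7, in the list but known as a substrate receptor for cyclin E, differed by -0.36 ± 0.24 (SE). Fbxo31, a receptor for cyclin D1, differed by -0.21 ± 0.22 and the adaptor Ddb1 by -0.21 ± 0.25. With median centring 1 of 11 was positive, without normalization 6 of 11, without Salv CKO 1 also 6 and without Control 1 7. Transcription factors that act on these genes had 5 of 10 positive (12 listed, 0 passing, median -0.041). Klf4, an activator of Cdkn1a, differed by -0.45 ± 0.27, Foxo3 by -0.79 ± 0.59 and Foxo4 by 0.97 ± 0.38, the last at intensities of 5 to 44.

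Cycling cell markers were positive in 8 of 8 measured genes (10 listed), with a median of 0.66, against a median of 0.13 for the members without Cdkn2c. Cdk1, counted among the 8, had a mean intensity under 30 over all arrays. Of the 8, 7 did not overlap between the groups (14.2% of named genes were higher in this way), 4 had an unadjusted p under 0.05 (3.97% of probes) and 0 passed in limma (smallest adjusted p = 0.998). The list was chosen with earlier results on these samples known and is not independent evidence. Ccnb2, a mitotic cyclin, was at 8.54 and 8.20 against 6.87 and 7.63, and differed by 1.12 ± 0.34 (SE). Plk1 differed by 0.93 ± 0.31 and Aurkb by 0.72 ± 0.26. Leaving out 1 sample gave medians of 0.45 to 0.76 for the list. Without Salv CKO 2, and also without Control 1, 7 of 8 were positive. With median centring the list's median was 0.53. Whether it differed from the members' median was not tested. Marker lists of other cell types also differed between the same groups, with 0 genes passing. Adipocyte genes were negative in 6 of 6, of which 4 did not overlap between the groups (16.5% of named genes were lower in this way), with a median of -1.19. Smooth muscle and pericyte genes were positive in 1 of 5 measured, with a median of -0.27. The 2 that were lower at an unadjusted p under 0.05 in limma, Tagln and Cnn1, had mean intensities under 30. The brighter Pdgfrb, Acta2 and Rgs5 differed by -0.27, 0.092 and -0.058. Erythroid genes were positive in 4 of 5 measured, with a median of 0.54. The medians depended on single samples. Leaving out Salv CKO 1, Salv CKO 2, Control 1 and Control 2 in turn gave -1.92, -0.29, -0.83 and -1.59 for adipocyte genes, -0.37, -0.41, -0.30 and -0.67 for smooth muscle genes and 0.83, 0.22, 1.06 and -0.17 for erythroid genes. The part of these lists in the differences of the members and of the cycling cell markers was not tested.

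**Figure D3:**
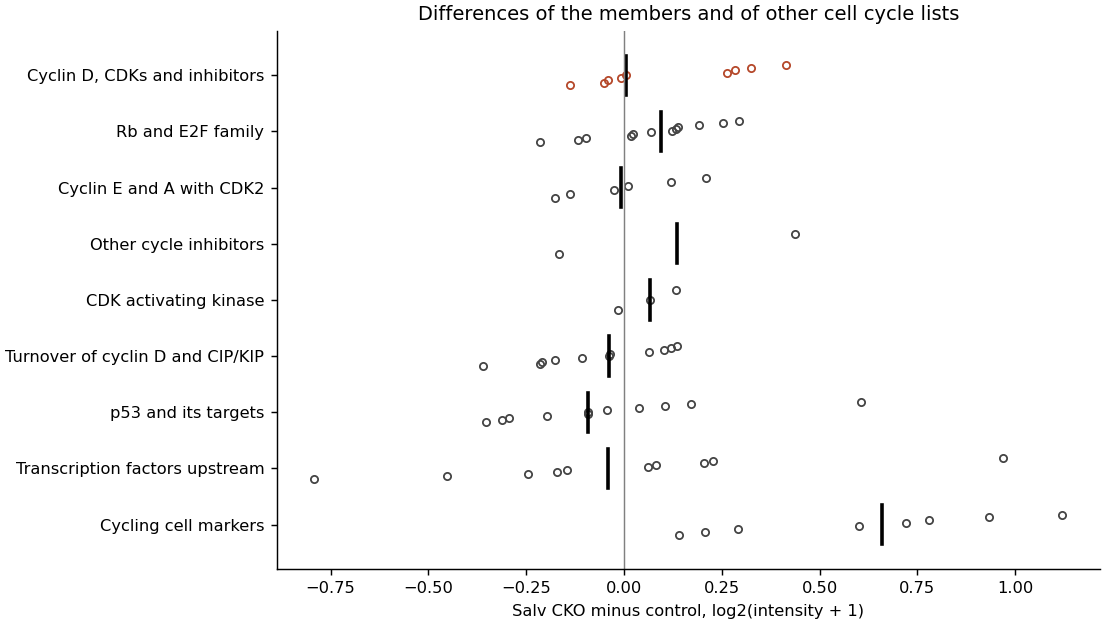
Differences between Salv CKO and control, on the log2(intensity + 1) scale, for the 9 measured members (red) and the measured genes of 8 other lists (grey), with 1 circle per gene and a bar at each list's median. The members spread from -0.14 to 0.41, and the cycling cell markers from 0.14 to 1.12.

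The members' median range over the 4 samples was 0.39, against 0.57 for all named genes and 0.42 for the 9017 with a mean level of at least 7, which Cdk6, Cdkn2b and Cdkn2c did not reach. The range of the brighter Ccnd2 probe, 0.52, exceeded that of 63.5% of these 9017 genes, and of 79.6% of the 1383 named genes within 1 of its mean level. Of the 9016 other genes, those whose centred 4-sample profile lay closest to that of Ccnd2 were Slc24a4, Riiad1 and Pold4, at root mean square distances of 0.013, 0.016 and 0.017. Those closest to Ccnd1 were Kif27, Prr7 and Cd207 (0.016, 0.016 and 0.025). Those closest to Cdkn1a were Sirt4, Eif4ebp1 and Gmip (0.022, 0.023 and 0.024). With 4 samples such closeness is common. Within 0.1 lay 203 genes for Ccnd2, 259 for Ccnd1 and 510 for Cdkn1a.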

How the data were processed

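Gene expression was measured on 12 one-colour Cy5 arrays of amplified RNA. The authors' deposited intensities are linear and reach down to -10. Not given in the sources used here are the scanner and how background and normalization were handled. The arrays were quantile normalized, negative values were raised to 0.0833, the lowest positive one, and converted to log2(value + 1), a scale that understates the changes of dim probes. Each sample's 3 technical arrays were averaged into 1 replicate. The groups were fitted with limma 3.58.1 in R 4.3.3 over all 26423 probes, with Benjamini-Hochberg adjustment and a threshold of 0.05 (2 residual and 2.6 prior degrees of freedom). The labels call the samples biological replicates without saying whether each was 1 heart or a pool. The p-values cover only the variation among these samples, part of which may be technical. The number of samples limits precision. The procedure was tested on simulated data with the same spread for every probe, where the fit returned the size of the added changes. This does not show how often a change in the measured data would pass.

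Probes were named from the platform annotation (20377 with 1 symbol, 6046 with none), with symbols updated through RefSeq (GRCm38.p6), 18213 by symbol, 2126 by synonym and 38 not matched. The members and gene lists were chosen with earlier results of these data known. Named were all members, Sav1, up to 3 genes per pathway list with the smallest p, and the 3 nearest profiles of up to 3 members with the widest range and a mean level of at least 7. Alternatives changed the scaling, pseudocount, dim filter, technical averaging, blocks, probe choice and samples. Marker lists were read as counts and as sums of normalized levels returned to the linear scale. Figures were drawn with matplotlib 3.10.9.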

Additional observations from a re-analysis of the deposited data

How the results depend on the processing

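The limma count of 0 called members held in all 15 alternatives tried, with the lowest adjusted p at 0.365. The limma count of 0 members at an unadjusted p under 0.05 became 1 with a pseudocount of 50, where 993 of 26423 probes passed. It became 2 with the sample as a random block, where 2202 probes passed. The count of 0 called probes became 2 with median centring, 14 without normalization and 61 with the sample as a random block. With the replicate block it was 0, and the numbers are not known to pair samples. Deviations of same-numbered samples correlated at -0.25 over probes, and with a crossed pairing the count was also 0. The members' median difference of 0.0047 was that of Cdkn2c, at background. It became 0.236 without normalization, which moves the median of all probes to 0.11 from -0.010. With the mean of all probes of a gene it became 0.102, and with 1 sample left out 0.028 to 0.219. Ccnd3 changed sign to 0.102 with the mean of its probes, Cdkn1b to 0.114 without normalization and Cdkn2c to -0.194 with the median of technical arrays. With 1 sample left out, differences ran from -0.337 to 0.0624 for Ccnd1, -0.0438 to 0.0282 for Ccnd3, -0.169 to 0.0669 for Cdkn1b, -0.185 to 0.103 for Cdkn1c, -0.24 to 0.25 for Cdkn2c and -0.459 to 0.213 for Sav1. The causes were not tested. Ccnd2, Cdk6, Cdkn1a and Cdkn2b kept a positive sign in every alternative that tested them. In part this was fixed in advance. Both their Salv CKO samples lay above both controls, so leaving out 1 sample could not reverse the sign. The blocks and the dim filter leave a difference as it is. Cdkn2b and Cdkn2c were too dim for the filter on the dimmest 50% of probes.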
